A study of Mus musculus with 2 samples.

Results

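Neutrophils were a rare class among the CD45-positive cells of GL261 gliomas: 52 of the 15234 barcodes kept in both libraries met the definition used here, 26 of 8155 PBS barcodes and 26 of 7079 ibudilast barcodes. To be kept, a barcode needed 300 or more genes, 500 or more unique molecular identifiers (UMIs, each standing for 1 captured transcript end) and under 10% of UMIs on mitochondrial genes. Members were chosen by measured values: a barcode was called a neutrophil when S100a8 and S100a9 made up at least 1% of its UMIs, when Retnlg, Csf3r and Cxcr2 gave at least 3 UMIs together, when C1qa and C1qb stayed under 0.5% of its UMIs and when Cd3d, Cd3e and Cd3g gave fewer than 2 UMIs. GL261 is a mouse glioma cell line, here grown inside the brain of C57BL/6 mice. 1 droplet library was made from tumour-infiltrating CD45-positive cells of mice given PBS into the stomach and 1 from mice given 20 mg/kg ibudilast by the same route, both 5 times a week for 2 weeks. Ibudilast is a small molecule that inhibits cyclic nucleotide phosphodiesterases and the cytokine macrophage migration inhibitory factor. The PBS library carries the label untreated although its protocol names PBS. How many mice were pooled for a library was not given in the labels. The labels call the sorted cells lymphocytes, while the sort marker CD45 is found on all white blood cells and on microglia.

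Neutrophils are short-lived granulocytes that leave the bone marrow with most of their granule proteins already made and that hold little RNA. In blood and tissue they are known by the calcium-binding proteins S100A8 and S100A9, by the receptor for granulocyte colony-stimulating factor (Csf3r) and by CXCR2, the chemokine receptor that draws them into inflamed tissue. In tumours they are known as a source of interleukin 1 beta and of chemokines that recruit further white cells, and they can take up interferon-induced and immunosuppressive states.

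With 1 library per group no difference between PBS and ibudilast has a replicate check, and no test was made. All ratios are ibudilast over PBS and compare these libraries. The 95% intervals reflect counting alone. Differences between cells and between mice are outside them, and they understate the error of a gene whose UMIs lie mainly in a few cells. Levels are counts per 1000000 (CPM) of the UMIs summed over the neutrophils of a library, and levels in single cells are UMIs per 10000 UMIs of that cell. Since each UMI stands for 1 transcript end, levels of different genes were not divided by length.

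The rule used S100a8, S100a9, Retnlg, Csf3r and Cxcr2, so their levels are a description. S100a8, a subunit of the heterodimer calprotectin, stood at 12333 and 15393 CPM in the PBS and ibudilast neutrophils, and its partner S100a9 at 20524 and 22011 CPM. In single cells S100a9 had a lowest, median and highest level of 47.6, 206 and 1005 UMIs per 10000 in PBS cells and 54.1, 159 and 1129 in ibudilast cells. Members thus differed widely in the genes that chose them, and both libraries covered the same range. Retnlg, a resistin-like secreted protein of granulocytes, was at 1666 and 1609 CPM. Csf3r was at 918 and 878 CPM and Cxcr2 at 579 and 631 CPM. Barcodes just inside and just outside the S100 limit were close together in both libraries. At the C1qa and C1qb limit this held in the PBS library, while ibudilast barcodes lay further apart. The lowest member had 1.01% of its UMIs on S100a8 and S100a9 in PBS cells and 1.08% in ibudilast cells, while the highest barcode that failed only on this limit had 0.792% and 0.991%. The highest C1qa and C1qb share of a member was 0.487% and 0.200%, and the lowest share of a barcode that failed only there was 0.532% and 0.617%. Barcodes that met every limit except the S100 share numbered 79 and 84, and 56 and 72 of them had no UMI of either S100 gene. Their level of Ly6c2, a monocyte surface protein, was 2893 and 3494 CPM, against 339 and 2751 CPM in the neutrophils. The gap was wide in the PBS library and small in the ibudilast library. The 5 ibudilast members with the most UMIs had 23, 1, 96, 46 and 94 Ly6c2 UMIs, and the others 22 at most.

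Genes outside the rule were then set against the label. The list of neutrophil markers that the rule did not use held 22 genes, of which 21 were in the files, and every one of the 21 had a UMI in at least 1 library. The list took a lowest, median and highest share of 0.716%, 1.72% and 4.81% of a cell's UMIs in PBS cells and of 0.322%, 1.23% and 2.86% in ibudilast cells. For comparison, 4 other sets of kept barcodes were formed from marker UMIs, and each barcode entered the first set it met. The macrophage set came first (C1qa and C1qb at 0.5% or more and fewer than 2 UMIs of the Cd3 genes, 4226 and 2092 barcodes). The other sets had C1qa and C1qb under 0.5%. They were, in order, a T cell set (at least 2 UMIs of the Cd3 genes, 752 and 1110), an NK cell set (at least 2 UMIs of Ncr1 and Klrb1c together) and a monocyte set (at least 3 UMIs each of Ly6c2 and Lyz2, 898 and 1151). G0s2, an inhibitor of triglyceride breakdown, was 449.6 and 80.3 times the monocyte set's level in the PBS and ibudilast libraries. Hdc, the enzyme that makes histamine, was 67.8 and 43.5 times that level, and Il1r2, the decoy receptor for interleukin 1, 32.9 and 14.3 times. Mmp9, a gelatinase stored in neutrophil granules, was at 409 and 375 CPM in neutrophils and at 0.997 and 0.422 CPM in the monocyte set. Mast cell and basophil genes, which share Hdc with neutrophils, gave 0 UMIs in the PBS neutrophils and 1 in the ibudilast neutrophils over 7 genes. Ly6g, the gene of the usual surface marker of mouse neutrophils, had 1 UMI in the PBS neutrophils and 0 in the ibudilast neutrophils. A count of 0 in the 109401 UMIs of the ibudilast neutrophils allows up to 27.4 CPM (3 counts), so Ly6g was not detectable at this depth in that library.

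**Figure D1:**
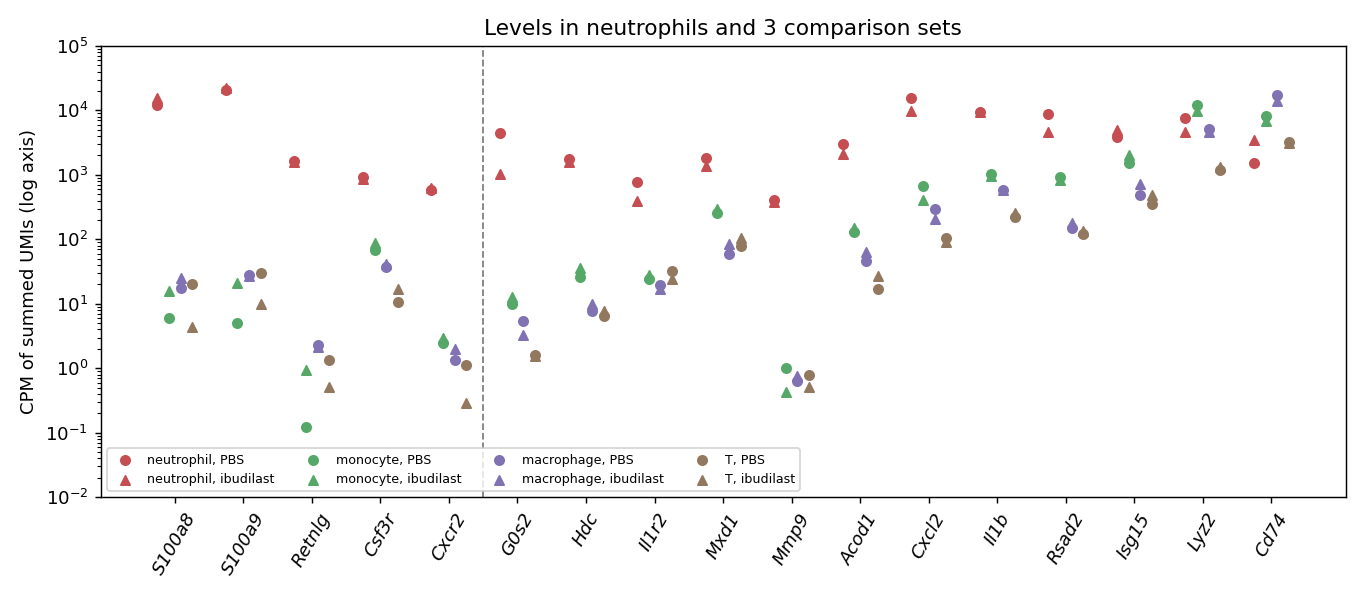
CPM of summed UMIs (log axis) for 17 genes in neutrophils (red), the monocyte set (green), the macrophage set (purple) and the T cell set (brown), circles for PBS and triangles for ibudilast; the 5 genes left of the dashed line chose the neutrophils. G0s2, Hdc, Il1r2 and Mmp9 lie far above the other sets in both libraries, while Lyz2 and Cd74 are lower in neutrophils than in the monocyte set.

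The neutrophils held little RNA. Their median was 2662 UMIs and 968 genes in PBS cells and 2609 UMIs and 955 genes in ibudilast cells, against 7948 and 7178 UMIs in the monocyte set. Mitochondrial genes took a median of 0.532% and 0.740% of neutrophil UMIs and 2.00% and 2.03% of monocyte-set UMIs. Ribosomal protein genes took 4.40% and 4.70% in neutrophils and 14.8% and 14.5% in the monocyte set. All these gaps were alike in both libraries. Of 19 barcode sequences that occur in both libraries, 1 was a PBS neutrophil and 0 were ibudilast neutrophils.

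The share of neutrophils did not differ beyond counting error. They made up 0.319% of kept barcodes in the PBS library (exact Clopper-Pearson interval 0.208 to 0.467%) and 0.367% in the ibudilast library (0.240 to 0.538%), a ratio of 1.15 (exact conditional binomial interval 0.643 to 2.06). The macrophage set, a large part of both libraries, was smaller in the ibudilast library, and outside it the order turned: 0.662% of PBS barcodes (0.433 to 0.968%) and 0.521% of ibudilast barcodes (0.341 to 0.763%) were neutrophils, a ratio of 0.788 (0.440 to 1.41).

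A few members carried a large part of the neutrophil RNA. 3 PBS barcodes with 11691 to 15822 UMIs held 42.3% of all PBS neutrophil UMIs, and 5 ibudilast barcodes with 7187 to 15822 UMIs held 48.2% of the ibudilast ones. No other PBS member exceeded 4085 UMIs and no other ibudilast member 5481. These 8 barcodes, those above 6000 UMIs, also held RNA that marks other cell classes. In the PBS library, 1 of them had 96 UMIs of Gzma, a granzyme of cytotoxic lymphocytes. The other PBS barcodes above the limit had 340 and 355 UMIs of lysozyme 2 (Lyz2) and 76 and 96 of Chil3, a chitinase-like protein of monocytes and macrophages. In the ibudilast library, 1 had 279 UMIs of the chemokine Ccl5 with 33 of Ccr7, a receptor of lymph-node-homing dendritic cells and T cells, and 1 had 235 UMIs of H2-Ab1, a chain of MHC class II. The remaining ibudilast ones had 23, 96 and 46 UMIs of Ly6c2. MHC class II RNA was not confined to 1 member: the ibudilast barcode with 23 Ly6c2 UMIs also had 71 of H2-Ab1. The PBS barcode with 355 UMIs of Lyz2 had 76 of H2-Ab1 and 52 of C1qb. The monocyte list of 9 genes took 0 to 1.01% of a member's UMIs in PBS cells and 0 to 1.97% in ibudilast cells. The dendritic and B cell list of 11 genes took up to 1.29% and 4.90%, with Flt3, Cd209a, Cd79a, Cd79b and Ms4a1 at 0 in every member. The T and NK cell list of 11 genes took up to 1.18% and 3.72%, with Trac and Cd8a at 0. Members at or below 6000 UMIs were not free of such RNA. The monocyte list took up to 0.865% and 1.10% there, the dendritic and B cell list 0.972% and 0.488%, and the T and NK cell list 0.196% and 0.564%. Neutrophil markers outside the rule made up 8204 and 5061 CPM in the barcodes above 6000 UMIs and 22369.5 and 14124 CPM in the others. Values are therefore also given for the 44 barcodes at or below 6000 UMIs, a limit chosen once their depths had been seen.

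**Figure D2:**
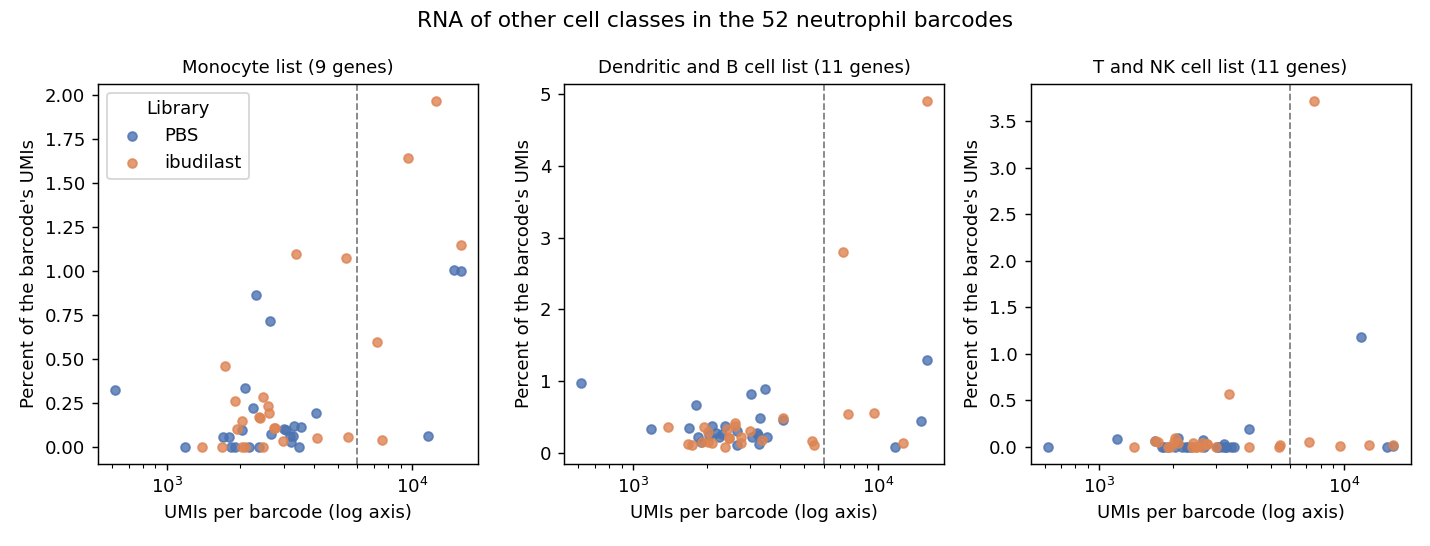
Percent of each neutrophil barcode's UMIs on the monocyte, the dendritic and B cell, and the T and NK cell lists (y axes, each on its own scale) against its UMIs (log axis), PBS in blue and ibudilast in orange, with 6000 UMIs dashed. The highest share in each panel belongs to an ibudilast barcode to the right of the dashed line.

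The most abundant transcripts of the neutrophils were structural and noncoding RNAs such as Malat1, Tmsb4x and Actb, the S100 genes, and genes of inflammation and of the antiviral response. S100a8 and S100a9 were among the 5 most abundant by CPM outside mitochondrial and ribosomal genes. Cxcl2, a CXCR2 ligand, was at 15565 CPM in PBS cells and 9963 CPM in ibudilast cells, 23.4 and 24.1 times the monocyte set. Il1b, the precursor of interleukin 1 beta, was at 9599 and 9561 CPM, 9.23 and 9.97 times the monocyte set. Rsad2, which encodes the antiviral enzyme viperin, was at 8790.5 and 4680.0 CPM, 9.52 and 5.53 times the monocyte set. With each cell thinned to 1000 UMIs, Il1b had a UMI in 92% of 25 PBS neutrophils (74.0 to 99.0%) and 96.2% of 26 ibudilast neutrophils (80.4 to 99.9%). The same share was 45.8% and 43.96% in the monocyte set and 12.0% and 12.6% in the T cell set, where free RNA in the droplets can give such UMIs. Unthinned it was 96.2% and 100% of neutrophils, and 41.6% and 39.5% of the T cell set, whose median depths were 8613.5 and 9088 UMIs. 1 PBS neutrophil under 1000 UMIs was left out of the thinned shares.

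Other genes that set neutrophils apart from the monocyte set in both libraries were chosen by the ratio of the levels of both. Acod1, which makes itaconate, was at 3053 and 2129.8 CPM, 23.9 and 14.2 times the monocyte set. Slc7a11, the cystine and glutamate exchanger, was 21.6 and 20.9 times that set's level. Hcar2, a receptor for nicotinic acid and beta-hydroxybutyrate, was 41.2 and 51.7 times it. Csf1, the macrophage growth factor, was 18.3 and 26.1 times, and Trem1, an activating receptor of myeloid cells, 15.03 and 22.7 times the monocyte set. Ptgs2, the inducible cyclooxygenase, was 10.54 and 25 times that set.

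Several genes of granule proteins were at or near 0. Mpo, Elane and Ctsg, made in early precursors in the bone marrow, and Camp, made slightly later, had 0 UMIs in every member of both libraries, which allows up to 29.9 CPM in PBS cells and 27.4 CPM in ibudilast cells. The lactoferrin gene Ltf had 3 and 1 UMIs and the neutrophilic granule protein gene Ngp 1 and 1. Other granule genes were present: Lcn2, an iron-siderophore binder, was at 339 and 439 CPM and Mmp8, a collagenase, at 169.6 and 64.0 CPM. Cycling genes gave 15 UMIs in 9 PBS members and 17 UMIs in 12 ibudilast members over 10 genes, with Mki67, Top2a and Birc5 at 0. Of the 7 genes of the NADPH oxidase, which makes superoxide, 6 had at least 50 UMIs over both libraries. Its membrane subunit Cyba was at 1257 and 1472 CPM and Cybb at 359 and 466 CPM. None of the 6 reached a 1.5-fold difference, beside 10.6% of all genes higher and 15.1% lower by that much. Their median log2 ratio was -0.25.

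For the comparison of ibudilast with PBS inside neutrophils, genes with at least 50 UMIs over both libraries were used, 644 in all. A difference of 1.5-fold or more was the size rule: 68 genes (10.6%) were higher in the ibudilast library by that much and 97 (15.1%) were lower, and the median log2 ratio over all 644 was -0.12. Scaling by the median of the gene ratios instead of by summed UMIs moves every log2 ratio by 0.12 and turns the split to 97 higher and 64 lower. Without the barcodes above 6000 UMIs 379 genes could be used, of which 33 (8.71%) were higher and 50 (13.2%) lower. 12 of the higher and 33 of the lower genes passed the size rule in both settings, 7 higher genes lay below 1 without those barcodes and 4 lower genes above 1.

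Several neutrophil markers outside the rule were lower in the ibudilast library. Of 13 with at least 50 UMIs, 6 were lower by 1.5-fold or more (Asprv1, Clec4d, G0s2, Ifitm6, Il1r2 and Stfa2l1) and 0 were higher, beside 15.1% and 10.6% of all genes, with a median log2 ratio of -0.40 against -0.12 over all genes. Without the barcodes above 6000 UMIs 4 of 11 were lower and 0 higher, beside 13.2% and 8.71% of all genes, with a median of -0.35. G0s2 had the lowest ratio of the 13 with all members. Its lowest, median and highest level in single cells was 0, 24.4 and 298 UMIs per 10000 in PBS cells and 0, 7.25 and 57.3 in ibudilast cells. The ranges overlapped, and 6 PBS cells lay above every ibudilast cell. Summed, G0s2 was at 4450.1 CPM (4047 to 4883) in PBS cells and 1024 CPM (843 to 1232) in ibudilast cells, a ratio of 0.230 (0.185 to 0.284). The ratio was 0.232 without the barcodes above 6000 UMIs, 0.247 with every cell weighted alike and 0.227 without the cell with the most G0s2 UMIs in each library. In the monocyte set, where G0s2 was at 9.85 and 12.8 CPM, the ratio was 1.30 (0.968 to 1.74). With each cell thinned to 1000 UMIs a G0s2 UMI was found in 76% of PBS neutrophils (54.9 to 90.6%) and 46.2% of ibudilast neutrophils (26.6 to 66.6%), and in 0.133% and 0.271% of the T cell set. Unthinned, these shares were 80.8% and 65.4% of neutrophils and 1.06% and 1.17% of the T cell set.

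Asprv1, a retroviral-like aspartic protease, was at 768 and 201 CPM, a ratio of 0.262 (0.155 to 0.425), and at 0.132 without the barcodes above 6000 UMIs. Single-cell levels were 0, 4.52 and 39.7 UMIs per 10000 in PBS cells and 0, 0 and 20.6 in ibudilast cells (lowest, median and highest). Most ibudilast members had none, and the highest was near the middle of the PBS range. Il1r2 was at 788 and 393 CPM with a ratio of 0.499 (0.336 to 0.732), and Clec4d, a lectin receptor, at 1377 and 695 CPM with a ratio of 0.505 (0.376 to 0.672). Other markers lay closer together: Hdc had a ratio of 0.895 (0.721 to 1.11), Mxd1, a MYC antagonist of mature granulocytes, 0.756 (0.605 to 0.943), Slpi, a protease inhibitor, 0.905 (0.724 to 1.13) and Mmp9 0.916 (0.580 to 1.45). Neutrophil markers therefore did not differ as 1 block.

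Genes lower in the ibudilast neutrophils outside the marker list were found by ranking on the interval bound nearest to 1. Id1, an inhibitor of helix-loop-helix transcription factors, was at 1048 and 128 CPM, a ratio of 0.122 (0.0646 to 0.214). Its single-cell levels were 0, 0 and 87.6 UMIs per 10000 in PBS cells and 0, 0 and 12.6 in ibudilast cells, and the PBS level came from a minority of cells. Gadd45g, a stress-induced growth arrest gene, had 49 UMIs in 6 PBS members and 6 in 5 ibudilast members, a ratio of 0.112 (0.0393 to 0.262). Cd9, a tetraspanin, was found in most members: its levels were 0, 20.0 and 90.6 UMIs per 10000 in PBS cells and 0, 11 and 52.5 in ibudilast cells, and its ratio was 0.520 (0.413 to 0.654). The same ranking named Lamp2, a lysosomal membrane protein (0.373, 0.216 to 0.623), Adgre5, the adhesion receptor CD97 (0.410, 0.257 to 0.640), and Basp1, a membrane-bound signalling protein (0.462, 0.329 to 0.643). Without the barcodes above 6000 UMIs the ratios of Id1, Gadd45g, Cd9, Lamp2, Adgre5 and Basp1 were 0.142, 0.121, 0.574, 0.473, 0.500 and 0.516. C1qb, a complement gene of macrophages that the rule limits, was also among the 10 lowest (0.382), and its ratio was 0.810 without those barcodes.

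**Figure D3:**
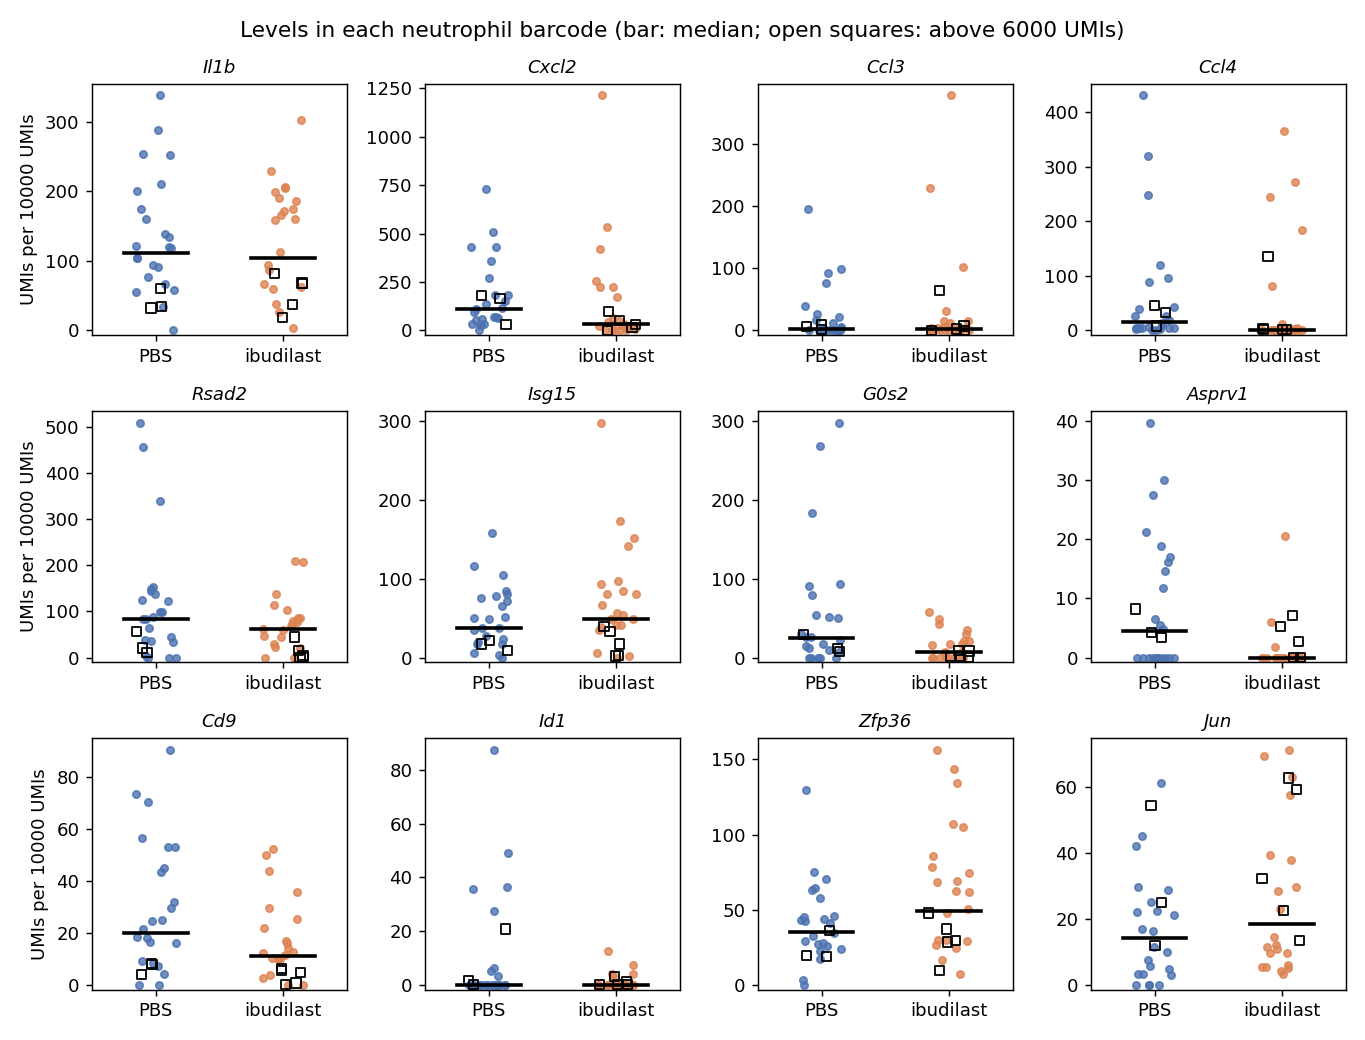
UMIs per 10000 UMIs in each neutrophil (y axes, each on its own scale) for 12 genes, PBS in blue and ibudilast in orange, with the median as a bar and the barcodes above 6000 UMIs as open squares. G0s2, Asprv1 and Id1 reach levels in PBS cells that no ibudilast cell reaches, and the Il1b ranges overlap, with 1 PBS cell above every ibudilast cell.

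Several of the genes ranked highest in the ibudilast neutrophils depended on the deep barcodes. Ccl5, a chemokine of T and NK cells, had a ratio of 17.8 (10.8 to 31.5), with 89.7% of its ibudilast UMIs in 1 cell, and a ratio of 2.13 (1.03 to 4.64) without the barcodes above 6000 UMIs. That second ratio leaned on single cells too: 1 ibudilast barcode of 3371 UMIs held 19 Ccl5 UMIs and 1 PBS barcode of 4085 UMIs held 8. The monocyte genes Ly6c2 and Plac8 had ratios of 8.11 and 3.49, and of 1.90 and 1.45 without the barcodes above 6000 UMIs. Among the members left, the ibudilast barcodes of 3371 and 5391 UMIs held 22 and 12 Ly6c2 UMIs. The ribonuclease gene Rnaset2a had ratios of 3.82 with and 0.794 without the barcodes above 6000 UMIs. MHC class II genes were higher in the ibudilast library over all 52 members and lower over the 44 at or below 6000 UMIs: H2-Ab1 had a ratio of 2.22 and 0.820, H2-Aa 2.15 and 0.538, and H2-Eb1 2.14 and 0.480. The monocyte list, summed, was at 4001 and 7175 CPM with all members, and at 1488 and 2666 CPM at or below 6000 UMIs. Its part in the differences of other genes was not tested. Of the genes ranked highest, Ly6a, Ms4a4c, Ms4a6d and Cxcl9 moved less. Ly6a, the surface protein Sca-1, had ratios of 4.18 and 3.95 (1.78 to 9.96). The membrane protein genes Ms4a4c, itself on the monocyte list, and Ms4a6d had 3.75 and 5.87 (2.00 to 23.3), and 4.08 and 4.34 (1.41 to 17.7). Cxcl9, an interferon-gamma-induced chemokine, had 4.199 and 2.83 (1.28 to 6.90). All 4 were found in a minority of members, Ly6a in 8 PBS and 11 ibudilast cells. Their ratios without the barcodes above 6000 UMIs still leaned on single cells. The ibudilast barcode of 5391 UMIs held 16 Ly6a, 14 Ms4a4c and 14 Ms4a6d UMIs, and 58 UMIs of the monocyte list. Another, of 2759 UMIs, held 17 Cxcl9 UMIs. No other ibudilast member at or below 6000 UMIs had as many of these genes. Ifi27l2a, an interferon-induced gene found in 21 and 22 cells, was at 1936 and 4543 CPM, a ratio of 2.35 (1.98 to 2.79), and 1.67 (1.33 to 2.11) without the barcodes above 6000 UMIs. The latter ratio also leaned on the ibudilast barcode of 5391 UMIs. It held 58 Ifi27l2a UMIs, more than any other member at or below 6000 UMIs.

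**Figure D4:**
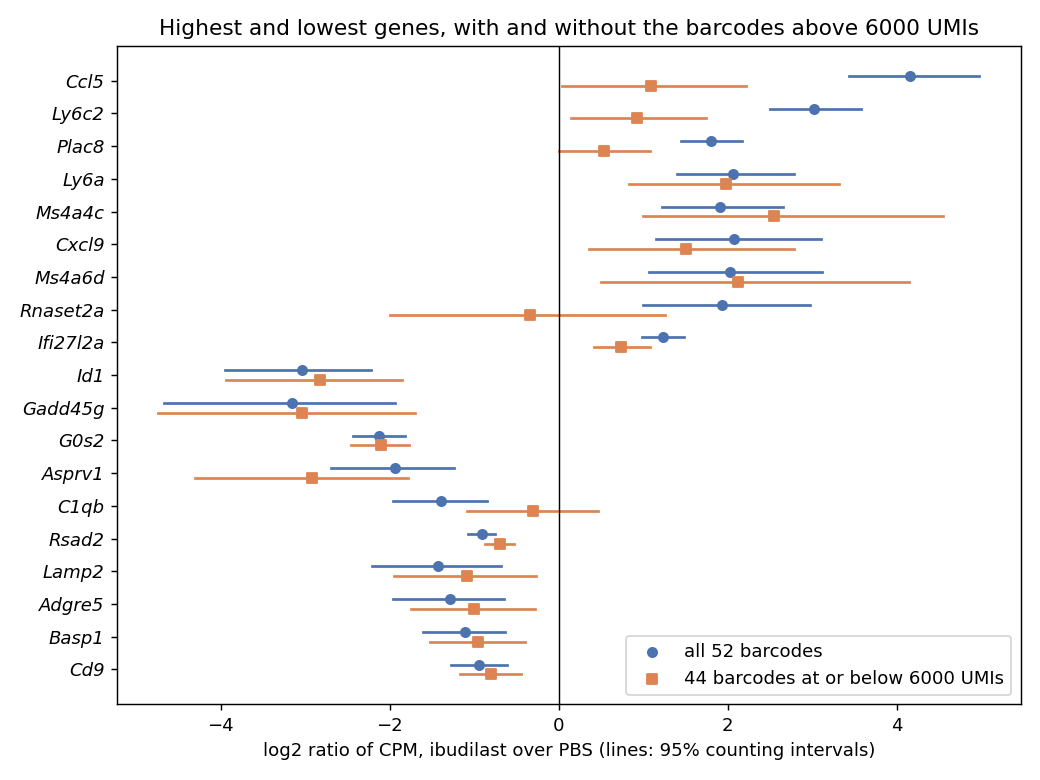
log2 ratio of CPM, ibudilast over PBS, with 95% counting intervals as lines, for 9 of the 10 highest and the 10 lowest ranked genes in all 52 neutrophils (blue circles) and in the 44 barcodes at or below 6000 UMIs (orange squares). Ccl5, Ly6c2, Plac8 and Rnaset2a move towards or past 0 without the deep barcodes, while G0s2, Id1 and Gadd45g stay in place.

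The list of 15 chemokines and inflammatory cytokines, with which neutrophils call in and stimulate other white cells, took a median of 3.75% of a PBS member's UMIs and 2.81% of an ibudilast member's. Of 9 list members with at least 50 UMIs, 1 was higher by 1.5-fold or more (Ccl3) and 3 lower (Ccl2, Cxcl2 and Il1rn), beside 10.6% and 15.1% of all genes, with a median log2 ratio of -0.04 that became 0.08 under median-of-ratios scaling. Without the barcodes above 6000 UMIs 1 of 8 was higher (Ccl3) and 1 lower (Il1rn), beside 8.71% and 13.2% of all genes. Ccl2 then had 7 and 9 UMIs left of 118 and 77. Il1b was level between the libraries: its single-cell levels were 0, 112 and 338 UMIs per 10000 in PBS cells and 4.04, 104 and 303 in ibudilast cells, and its ratio was 0.996 (0.912 to 1.09). Il1rn, the natural antagonist of interleukin 1, was at 1157 and 603 CPM, a ratio of 0.521 (0.379 to 0.711). Il1a had 9 UMIs in 4 PBS members and 0 in the ibudilast members.

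Cxcl2 ranged widely between cells, with levels of 0, 113 and 731 UMIs per 10000 in PBS cells and 0, 32.4 and 1213 in ibudilast cells. The median was lower in the ibudilast library while the single highest cell lay in it. Summed, Cxcl2 had a ratio of 0.640 (0.592 to 0.692). It was 0.841 without the barcodes above 6000 UMIs, 0.514 without the top cell of each library, 0.781 with cells weighted alike and 1.13 with the S100 limit at 2%, so its direction rests on which barcodes count as neutrophils. The monocyte set had a Cxcl2 ratio of 0.621 (0.596 to 0.647). Ccl4, a chemokine for monocytes and T cells, had almost the same sum in both libraries (4699.6 and 4789.7 CPM, ratio 1.02, 0.898 to 1.16) but was spread over fewer ibudilast cells. Thinned to 1000 UMIs, 68% of PBS members (46.5 to 85.1%) and 30.8% of ibudilast members (14.3 to 51.8%) had a Ccl4 UMI, intervals that overlap, against 92.3% and 57.7% unthinned. T cells make Ccl4 themselves and give no background level for it. Ccl3, which binds CCR1, had a ratio of 1.90 (1.58 to 2.29), with 56.4% of its ibudilast UMIs in 1 cell, and a ratio of 1.11 without the top cell of each library. Tnf had 10 and 18 UMIs. Across the 52 members Ccl3 and Ccl4 levels had a Pearson r of 0.55 and a Spearman rho of 0.59, and Il1b and Cxcl2 levels 0.15 and 0.04. Those points share the libraries and the few deep barcodes.

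Promoter stretches of Cxcl2 and of 4 interferon-induced genes are shown because they hold matches to motifs of the inducible programmes described next and above. They are RefSeq promoters on GRCm38.p6, from 150 to 31 bases before the RefSeq start, read 5′ to 3′ on the gene's strand. Capitals mark matches to GGGNNTTTCC or GGAAANNCCC (an NF-kB motif) in Cxcl2 and to GAAANNGAAA or TTTCNNTTTC (the interferon-stimulated response element, ISRE) in the others, where each pair holds both strands.
Cxcl2 (chr5:90903749-90903868, plus strand): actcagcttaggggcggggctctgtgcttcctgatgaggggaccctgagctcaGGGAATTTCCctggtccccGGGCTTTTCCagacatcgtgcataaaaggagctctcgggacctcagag
Rsad2 (chr12:26456483-26456602, minus strand): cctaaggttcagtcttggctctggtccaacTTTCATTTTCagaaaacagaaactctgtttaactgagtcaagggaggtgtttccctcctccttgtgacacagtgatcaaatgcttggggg
Isg15 (chr4:156200849-156200968, minus strand): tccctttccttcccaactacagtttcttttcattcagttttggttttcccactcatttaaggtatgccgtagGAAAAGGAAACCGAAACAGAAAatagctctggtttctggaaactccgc
Ifit1 (chr19:34640739-34640858, plus strand): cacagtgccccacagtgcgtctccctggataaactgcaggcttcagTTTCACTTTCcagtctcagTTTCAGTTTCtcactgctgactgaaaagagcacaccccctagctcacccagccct
Ifit3 (chr19:34583379-34583498, plus strand): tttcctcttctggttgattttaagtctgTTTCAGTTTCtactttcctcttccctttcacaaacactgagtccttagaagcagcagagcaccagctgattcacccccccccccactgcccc
Cxcl2 held 2 NF-kB matches, Rsad2 and Ifit3 1 ISRE match each, Ifit1 2, and Isg15 3 that overlap. Cmpk2, searched for the ISRE, and Il1b and Ccl3, searched for the NF-kB motif, held 0 matches and are not printed. S100a8, S100a9 and G0s2, searched for a C/EBP motif (TTGCNNAA or TTNNGCAA), also held 0 matches. Over 32851 promoter windows of the same 120 bases, 0.679% held the NF-kB motif, 1.24% the ISRE and 4.65% the C/EBP motif. Of the 17 genes on the type I interferon list 15 had a promoter entry and 6 of these held an ISRE match, and of the 15 chemokine and cytokine genes 11 had an entry and 5 held an NF-kB match. Of the 15 granule protein genes 14 had an entry and 2 held a C/EBP match. A match describes the letters and is no proof of binding.

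The type I interferon response, the set of antiviral genes that cells switch on through the interferon receptor, was present in both libraries. The 17 genes took a lowest, median and highest share of 0.295%, 3.34% and 8.73% of a PBS member's UMIs, and 0.161%, 3.03% and 10.3% of an ibudilast member's. 22 of 26 members in each library had at least 1% of their UMIs on the list. All 17 genes had at least 50 UMIs. 1 was higher in the ibudilast library by 1.5-fold or more (Bst2, which tethers budding virus particles) and 5 were lower (Cmpk2, Rsad2, Slfn1, Slfn4 and Usp18), beside 10.6% and 15.1% of all genes, with a median log2 ratio of -0.20. Without the barcodes above 6000 UMIs 0 were higher and 2 lower (Rsad2 and Slfn1), beside 8.71% and 13.2% of all genes. The median was then -0.11.

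Rsad2 was the list gene with the largest summed level and, with all members, the lowest ratio. Its single-cell levels were 0, 83.6 and 510.1 UMIs per 10000 in PBS cells and 0, 61.1 and 210.2 in ibudilast cells. 3 PBS cells lay above every ibudilast cell and the rest overlapped. Its ratio was 0.532 (0.477 to 0.594), 0.617 (0.548 to 0.694) without the barcodes above 6000 UMIs and 0.557 without the top cell of each library. In the monocyte set the Rsad2 ratio was 0.917 (0.888 to 0.946). Isg15, a ubiquitin-like modifier, pointed the other way: its levels were 0, 37.7 and 158 UMIs per 10000 in PBS cells and 0, 48.9 and 298 in ibudilast cells, and its ratio was 1.28 (1.12 to 1.46). Ifit1 and Ifit3, antiviral proteins with tetratricopeptide repeats, had ratios of 0.846 (0.687 to 1.04) and 0.873 (0.716 to 1.06). Ifitm3, a membrane protein that blocks virus entry, had 1.08 (0.954 to 1.22). Slfn4, a myeloid schlafen gene, was at 2455 and 1572 CPM, a ratio of 0.641 (0.524 to 0.781). The list thus held genes on both sides, with Rsad2 lower and Isg15 higher. Rsad2 and Cmpk2, neighbours on chromosome 12 (GENCODE M21, mm10: Rsad2 at 26442746 to 26456452, Cmpk2 at 26469204 to 26479837), had single-cell levels with a Pearson r of 0.80 and a Spearman rho of 0.68 over 52 members, and Rsad2 and Isg15 0.31 and 0.63. Cells of both libraries enter these values, and members of low depth give levels in coarse steps.

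**Figure D5:**
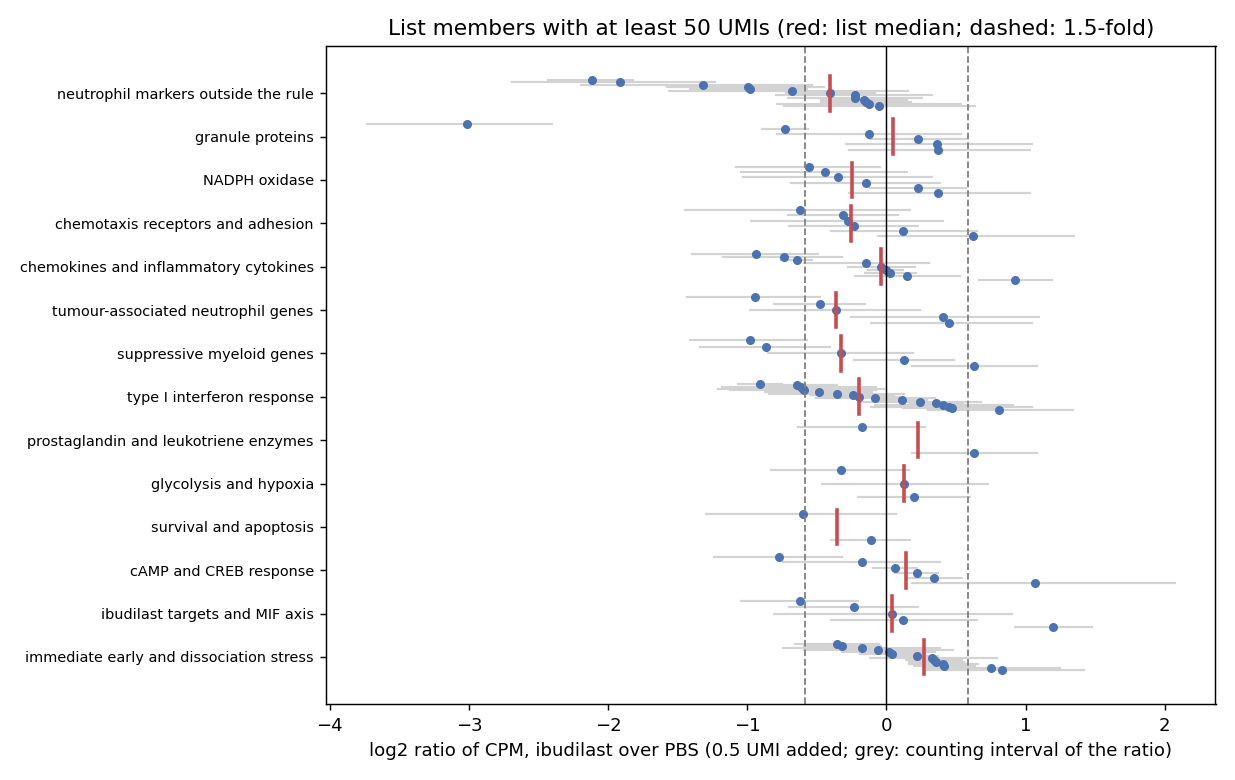
log2 ratio of CPM, ibudilast over PBS, for list members with at least 50 UMIs (blue points, with grey counting intervals), with each list's median in red and 1.5-fold limits dashed. 6 of the 13 neutrophil markers outside the rule lie beyond the lower 1.5-fold limit, and the interferon list spreads to both sides of 0.

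Immediate early genes, transcription factors and heat shock genes that respond within minutes to stimulation or to tissue dissociation, were measured for 14 members. Of these 14 with at least 50 UMIs, 2 were higher in the ibudilast library by 1.5-fold or more (Hsp90aa1 and Ier2), a share near the 10.6% of all genes, and 0 were lower, with a median log2 ratio of 0.27 against -0.12 over all genes. Without the barcodes above 6000 UMIs 4 of 13 were higher (Hsp90aa1, Hspa1a, Ier2 and Jun), beside 8.71% of all genes, and 0 lower, with a median of 0.44. The list took a median of 2.72% of a PBS member's UMIs and 3.84% of an ibudilast member's. The heat shock protein gene Hsp90aa1 had a ratio of 1.79 (1.21 to 2.67) and Ier2, a nuclear early response gene, 1.69 (1.21 to 2.37). Zfp36, which destabilises cytokine messages, had single-cell levels of 0, 35.3 and 129.7 UMIs per 10000 in PBS cells and 7.18, 49.1 and 156 in ibudilast cells and a ratio of 1.28 (1.12 to 1.47). Jun and Fos, the AP-1 subunits, had ratios of 1.33 (1.12 to 1.58) and 1.27 (1.10 to 1.46). In the monocyte set Ier2, Hsp90aa1 and Zfp36 had ratios of 0.949, 0.936 and 0.979.

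Ibudilast's own targets were scarcely measured. Of the phosphodiesterase genes, Pde4b had 11 and 18 UMIs, Pde4a 0 and 1 and Pde3b 1 and 0, while Pde3a, Pde4c, Pde4d, Pde10a and Pde11a had 0 in both libraries. Pde4b is the phosphodiesterase 4 gene known for its role in inflammatory white cells, and its ratio was 1.499 (0.671 to 3.51). Mif was at 239 and 247 CPM, a ratio of 1.03 (0.572 to 1.87). Its receptor chain Cd74 had a ratio of 2.29 (1.89 to 2.79) with all members and 0.661 (0.446 to 0.972) without the barcodes above 6000 UMIs, and the co-receptor Cd44 0.650 (0.485 to 0.868). Cyclic AMP, which phosphodiesterases break down, acts on transcription through CREB. Of 6 CREB-linked genes with at least 50 UMIs, 1 was higher (Nr4a1, an orphan nuclear receptor, 2.14, 1.14 to 4.21) and 1 lower (Thbs1, thrombospondin 1, 0.585, 0.424 to 0.802), shares near the 10.6% and 15.1% of all genes, with a median log2 ratio of 0.14. Nr4a1 rested on 15 and 35 UMIs. At or below 6000 UMIs 0 of 5 were higher and 1 lower (Thbs1), beside 8.71% and 13.2% of all genes, with a median of -0.03.

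Neutrophils find tissue through receptors for chemoattractants and adhesion. Of 13 such genes 6 had at least 50 UMIs, of which 1 was higher by 1.5-fold or more (Selplg, the selectin ligand, 1.55, 0.959 to 2.54) and 1 lower (C5ar1, the receptor for complement C5a, 0.647, 0.367 to 1.12), with intervals that hold 1 and shares near the 10.6% and 15.1% of all genes. In the 44 barcodes at or below 6000 UMIs 0 of 4 were past 1.5-fold in either direction. Of all genes 8.71% were higher there and 13.2% lower. Cxcr4, which retains neutrophils in the bone marrow and marks aged ones, had a ratio of 0.851 (0.617 to 1.17). Cxcr2, a gene of the rule, had 1.09 (0.757 to 1.57).

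Genes reported for neutrophils of other tumours were partly present. Siglecf, a lectin of one tumour neutrophil state, had 1 and 3 UMIs, and Tnfrsf10b, Dcstamp and Ptges had 0 in both libraries. Cd274, which encodes the T cell inhibitor PD-L1, was at 519 and 402 CPM, a ratio of 0.775 (0.507 to 1.18). Vegfa had 5 and 8 UMIs. Of 5 genes of that list with at least 50 UMIs, 1 was lower (Cstb, a cathepsin inhibitor, 0.519, 0.371 to 0.718) and 0 were higher, beside 15.1% and 10.6% of all genes. The median log2 ratio was -0.36, but 0.52 with the S100 limit at 2% and 0.25 with C1qa and C1qb under 0.1%. Without the barcodes above 6000 UMIs it was -0.45. There 2 of 4 were lower (Ccrl2 and Cstb) and 0 higher, beside 13.2% and 8.71% of all genes. Among genes of suppressive myeloid cells Arg1, Nos2 and Ido1 had 0 UMIs in both libraries. Of 5 with at least 50 UMIs, 1 was higher (Ptgs2, 1.55, 1.14 to 2.12) and 2 were lower (Clec4d, given above, and Cd14, a lipopolysaccharide co-receptor, 0.548, 0.396 to 0.754), beside 10.6% and 15.1% of all genes, with a median of -0.33. Of granule protein genes 2 of 6 were lower, beside 15.1% of all genes: Chil3 and Lyz2, with ratios of 0.122 and 0.603 and of 4.08 and 1.65 without the barcodes above 6000 UMIs. Chil3 then rested on 1 PBS and 4 ibudilast UMIs. Lcn2 had a ratio of 1.29 (0.816 to 2.07) with all members and 0.638 (0.346 to 1.15) without those barcodes, and both intervals hold 1.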

How the data were processed

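The authors deposited raw UMI counts per gene and barcode, whose headers name Cell Ranger 6.1.1; mm10 is the build in the submitters' processing notes. Both matrices list 31253 genes and hold 8968 PBS and 8483 ibudilast barcodes, with 119113794 and 82196922 UMIs. Members and gene lists were chosen with earlier results of these data known. Counts of members were summed per library and scaled to CPM. Intervals (95%) are exact Poisson for sums, Clopper-Pearson for shares and conditional binomial for ratios. The ratio and interval code was checked on simulated counts. List medians use log2 ratios with 0.5 UMIs added to each sum. Depth was 100222 UMIs over the PBS and 109401 over the ibudilast neutrophils. Named genes are those of the rule, the 10 highest and 10 lowest by the interval bound nearest to 1 (at least 50 UMIs, a UMI in 20% of members, bound beyond 1.25-fold), up to 8 members of each list and all past 1.5-fold, and the 15 leading genes by level and by ratio to the monocyte set. A few list members with few UMIs, such as Il1a, were named after their values were seen. Some genes that the rule names are not reported here. No doublets were removed: Scrublet in scanpy 1.11.5 marked 2 barcodes in each library, and the 6% with the highest scores held 0 neutrophils. Neutrophils were so rare that few of the doublets it simulates could hold one. The scores therefore say little about doublets among the members. Empty droplets were not used here. Motifs were searched in RefSeq promoters. Alternatives covered the rule's limits, scaling, weighting of cells, thinning to 1000 UMIs and the UMI minimum per gene. Tools were numpy 2.4.6 and scipy 1.17.1.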

Additional observations from a re-analysis of the deposited data

How the results depend on the processing

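No paired analysis was possible because each group has 1 library. Over 52 members, few cells decide many values, and genes under 50 UMIs entered no count of genes past 1.5-fold. The neutrophil share was 0.212% of the ibudilast library with the S100 limit at 2%, 0.184% of the PBS library with C1qa and C1qb under 0.1%, and 0.662% of the PBS barcodes outside the macrophage set, and its ratio moved in no alternative by more than its interval. Against 68 higher and 97 lower genes (41.2% higher), median-of-ratios scaling gave 64 lower (60.2% higher), thinning to 1000 UMIs 136 higher (51.9%), the S100 limit at 2% 37 higher (29.8%), a minimum of 20 UMIs 266 and 289, a minimum of 100 UMIs 31 and 48, and leaving out the barcodes above 6000 UMIs (chosen after seeing the data) 33 and 50. Of the list medians (log2), immediate early genes were at 0.56 with cells weighted alike and 0.57 when thinned, and chemokines at -0.29 with cells weighted alike. With the S100 limit at 2% granule proteins were at 0.64, chemokines at 0.36, tumour-associated genes at 0.52 and CREB-linked genes at -0.051. With C1qa and C1qb under 0.1% tumour-associated genes were at 0.25 and glycolysis at -0.47. Granule proteins were at -0.73 with a minimum of 100 UMIs, and CREB-linked genes at -0.033 without the barcodes above 6000 UMIs. Of 35 named genes recomputed under each alternative that could give a value, 2 turned: Cxcl2 to 1.13 with the S100 limit at 2%, and Rnaset2a to 0.410 there and 0.794 without the barcodes above 6000 UMIs. Of all 379 genes with at least 50 UMIs with and without those barcodes, 7 higher by 1.5-fold or more with them were below a ratio of 1 without, and 4 lower ones above it. The cause was not tested. G0s2, Gadd45g, Cxcr2 and Csf3r moved by no more than their intervals in any alternative run. Of the recomputed gene ratios and list medians, 507 stayed, 87 moved (list medians that crossed 0 among them) and 3 gene ratios turned.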

Other observations

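Metabolic, survival and eicosanoid genes were measured in few members of their lists. Of the glycolysis and hypoxia genes 3 had at least 50 UMIs (Pkm, Gapdh and Aldoa), and their ratios were 0.796 (0.563 to 1.12), 1.15 (0.869 to 1.52) and 1.10 (0.727 to 1.66). None was past 1.5-fold, beside 10.6% of all genes higher and 15.1% lower. Of the survival genes, Mcl1, which neutrophils need to stay alive, had a ratio of 0.925 (0.760 to 1.13), and Bcl2a1b, a related survival gene with near-identical copies among which reads can be split, 0.657 (0.407 to 1.05). Alox5ap, the partner protein of 5-lipoxygenase in leukotriene synthesis, had 0.883 (0.643 to 1.21). The iron-storage genes Fth1 and Ftl1, both among the 15 most abundant, had ratios of 0.808 (0.756 to 0.864) and 0.723 (0.648 to 0.806), and 0.674 and 0.587 without the barcodes above 6000 UMIs.

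Haemoglobin RNA differed between the members of the libraries: 0 UMIs in the 26 PBS members and 72 UMIs in 15 of the 26 ibudilast members, of which 53 lay in 1 barcode. In the monocyte set the haemoglobin genes were at 1212 and 1509 CPM in the PBS and ibudilast libraries, in the macrophage set at 148 and 64.9, in the T cell set at 7.29 and 62.9 and in the set of NK cells (at least 2 UMIs of Ncr1 and Klrb1c together) at 17.2 and 3302 CPM. The share of barcodes with a UMI of the haemoglobin gene Hbb-bs differed in other sets too. Unthinned, it was 0% and 42.3% of neutrophils, 3.12% and 30.1% of the monocyte set and 3.19% and 31.8% of the T cell set. The cause was not tested.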
